A study of Mus musculus with 2 samples.

Results

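The 10 genes described here, Cldn5, Ocln, Tjp1, Abcb1a, Abcg2, Slco1a4, Slc2a1, Mfsd2a, Slc7a5 and Spock2, encode junction proteins, efflux pumps, carriers and a matrix protein of the blood-brain barrier. They were taken by symbol from the 53717 features of 2 single-cell RNA matrices of mouse hippocampus, and all 10 had UMIs (unique molecular identifiers, each counting 1 captured RNA molecule) in both. All mice were 5xFAD, a transgenic strain that accumulates amyloid plaques, the time label was 6 months for both groups, and hippocampi were taken 3 weeks after delivery of an AAV9 vector. In the NeuroD1 group the vector was AAV9-GFAP::NeuroD1-P2A-GFP, which encodes GFP and the proneural transcription factor Neurod1. In the GFP group it was AAV9-GFAP::GFP, which carries GFP alone. The GFAP promoter of both vectors is active mainly in astrocytes, so vessel cells are not the cells in which the insert is meant to be expressed. The titles mark the NeuroD1 library AD and the GFP library Ctrl, while the strain label is the same for both. Each group was 1 library from a group of 3 mice, so the spread between mice was not measured, no test between groups was possible, and every 95% interval given below covers counting error only.

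Brain capillaries are lined by endothelial cells that are sealed to each other by tight junctions and hold few transport vesicles, so that most solutes cross only through carriers in the cell membranes. Efflux pumps on the blood side return many lipophilic drugs to the blood, while carriers bring glucose, large neutral amino acids and lipid-bound docosahexaenoic acid into the brain. Wnt signalling to the endothelium and contact with pericytes and astrocyte endfeet are known to maintain this program.

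The libraries differed in depth and in make-up before any barrier gene was considered. There were 13402 barcodes with 51236521 UMIs for NeuroD1 and 11739 barcodes with 17504950 UMIs for GFP, which left 12762 and 11065 cells after filtering, with medians of 2554.5 and 1170 UMIs. Kept cells of the libraries shared 91 cell barcodes. Cells were clustered without the barrier genes, and clusters were called "X-like" from markers that exclude them, so none of the 10 genes helped to define a class. Endothelial-like cells numbered 2034 (15.9% of cells) in the NeuroD1 and 1013 (9.15%) in the GFP library, with medians of 2248.5 and 1045 UMIs per cell and sums of 5969033 and 1302198 UMIs. All 13 endothelial markers were detected in both, at a summed level of 17234 and 13383 CPM, here the UMIs of a gene or list relative to all UMIs of that class and library. The class came from different clusters in each library: cluster 5 had 1630 NeuroD1 and 109 GFP cells, cluster 8 had 244 and 886, and cluster 20 had 160 and 18. Summed red blood cell markers in endothelial-like cells were at 17800 CPM in the NeuroD1 and 65.3 CPM in the GFP library, choroid plexus markers at 10596 and 2171 CPM, pericyte markers at 1392 and 666 CPM, and microglial markers at 144 and 1037 CPM. Sex-linked RNA differed as well: in endothelial-like cells Xist had 0 UMIs in the NeuroD1 library, where 3 UMIs would be 0.503 CPM. Xist had 45 UMIs in the GFP library, and Ddx3y had 414 and 0 in the NeuroD1 and GFP libraries. Beyond the change of scaling given below, the part of these differences in the library ratios was not tested, and vector, sex and library cannot be told apart.

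Promoter sequence is shown for 4 of the genes because all 10 were highest in the same class (below) while their promoters differ in base composition. Reference promoters were found for 9 of the 10 genes in RefSeq (GRCm38.p6). Each line gives the 250 bases before the annotated start, 5′ to 3′ on the gene's strand, with every CpG dinucleotide in capitals. Cldn5 lies at chr16:18776597-18776846 (plus strand), Slc2a1 at chr4:119108495-119108744 (plus strand), Abcb1a at chr5:8566841-8567090 (plus strand) and Slco1a4 at chr6:141856221-141856470 (minus strand).
Cldn5: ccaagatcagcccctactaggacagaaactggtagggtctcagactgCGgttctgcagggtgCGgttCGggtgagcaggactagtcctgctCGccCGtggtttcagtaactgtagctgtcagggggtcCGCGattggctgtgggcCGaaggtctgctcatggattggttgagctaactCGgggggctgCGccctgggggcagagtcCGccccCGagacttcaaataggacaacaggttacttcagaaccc
Slc2a1: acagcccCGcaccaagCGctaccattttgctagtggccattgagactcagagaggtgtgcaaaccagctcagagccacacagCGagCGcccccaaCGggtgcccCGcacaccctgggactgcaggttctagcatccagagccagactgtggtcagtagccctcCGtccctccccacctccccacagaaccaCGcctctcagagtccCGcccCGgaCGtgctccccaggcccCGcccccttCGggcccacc
Abcb1a: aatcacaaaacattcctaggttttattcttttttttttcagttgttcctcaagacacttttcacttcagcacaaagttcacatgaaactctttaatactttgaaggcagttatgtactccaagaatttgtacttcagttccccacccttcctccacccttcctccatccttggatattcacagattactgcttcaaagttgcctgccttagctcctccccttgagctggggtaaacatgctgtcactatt
Slco1a4: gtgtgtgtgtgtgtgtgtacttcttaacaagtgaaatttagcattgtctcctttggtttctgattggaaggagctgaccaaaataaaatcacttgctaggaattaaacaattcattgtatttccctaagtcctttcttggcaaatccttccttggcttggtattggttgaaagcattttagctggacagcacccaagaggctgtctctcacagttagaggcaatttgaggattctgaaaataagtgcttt
The Cldn5 and Slc2a1 windows hold 12 and 13 CpGs, whereas those of Abcb1a and Slco1a4 hold 0. The median over 32851 promoters was 6. GC content was 59.6% for Cldn5 and 66.4% for Slc2a1 but 40.4% for Abcb1a and 39.2% for Slco1a4, beside a median of 52.4% over all promoters. Among the other genes the window of Tjp1 held 22 CpGs, that of Mfsd2a 17 and that of Spock2 7, and the alternative starts of Ocln and Abcg2 ranged from 14 to 22 and from 3 to 23. The GC box GGGCGG was found on either strand in a promoter of 5 of the 9 genes, against 32.7% of all promoters. The units are unlike: a gene counts if any of its promoters matches, which favours Ocln and Abcg2, while the background is over single promoters. The TATA box TATAAA and the TCF/LEF core CTTTGAT were in 0 of 9, against 12.4% and 3.21%, the SOX core ACAAT in 2 of 9, against 27.7%, and the ETS core CCGGAA in 1 of 9, against 12.03%. These are letter matches in a short window and describe no binding.

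Endothelial-like cells had the highest level of all 10 genes in both libraries, among the 14 classes with at least 30 cells in the NeuroD1 and the 12 in the GFP library. The 10 were chosen as barrier genes with earlier results of these data known. The share of all genes that were highest in this class is not given here. What separated the genes was how far the next class lay below. Cldn5, Slco1a4 and Slc7a5 were at least 10.7-fold above the next class in both libraries. For Mfsd2a the step down to oligodendrocyte precursor-like cells was within counting error, and astrocyte-like cells followed at a lower level. Tjp1 was 2.03-fold and 1.86-fold lower in pericyte-like cells (above every endothelial marker there in the NeuroD1 library only). Spock2 was also found, at a lower level, in neuron-like cells. The class map of the 10 genes shows these departures as filled cells outside the endothelial row.

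**Figure D1:**
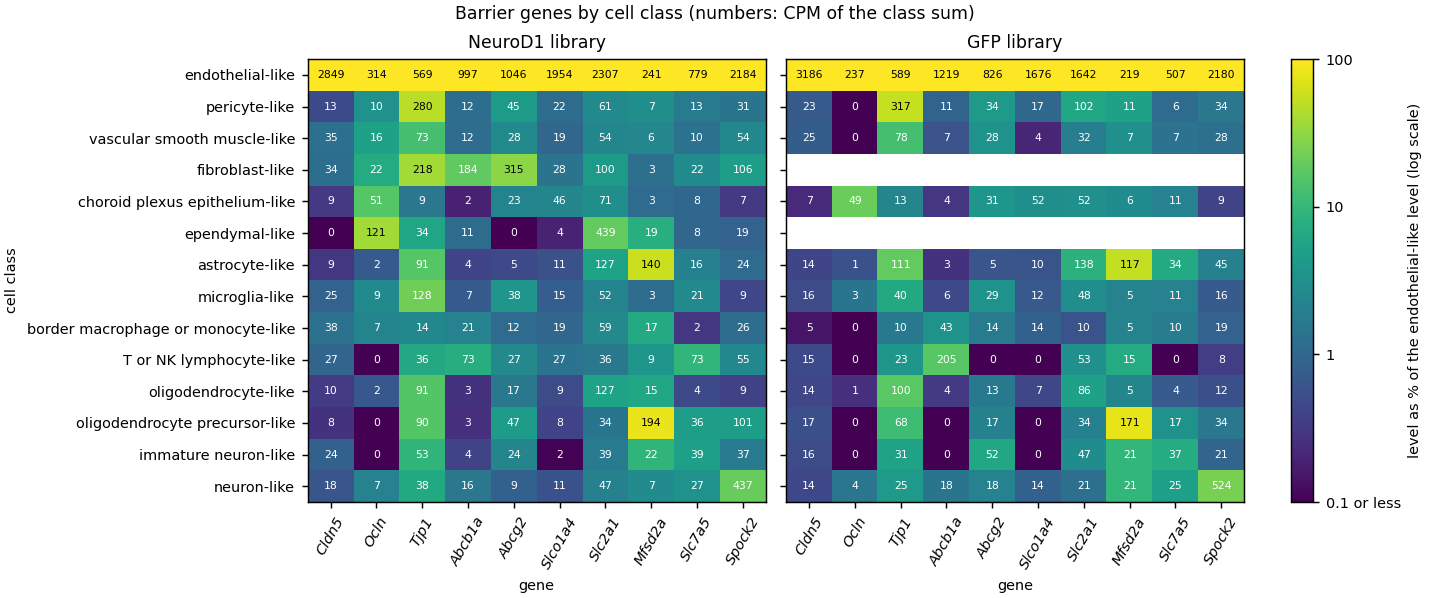
Level of each barrier gene (columns) in each class (rows) in the NeuroD1 and GFP libraries; numbers are CPM and colour is the percentage of the endothelial-like level of the same gene and library on a log scale. Blank rows in the GFP panel are classes with fewer than 30 cells; Mfsd2a in astrocyte-like cells (140 and 117 CPM) stands out against Cldn5 in the same cells (8.83 and 13.6 CPM).

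Free RNA and mixed cells can give a few UMIs of a gene in any class, so each value outside the endothelium was set beside endothelial markers measured in the same cells. In astrocyte-like cells the summed endothelial markers were at 0.465% (NeuroD1) and 0.615% (GFP) of their endothelial-like level, and the highest single marker was at 0.700% and 1.19%. In pericyte-like cells the sum was at 4.67% and 5.46%, with the highest single marker at 40.1% and 61.5%. A gene was called above this yardstick in a class where the lower end of the interval of its percentage exceeded the percentage of every endothelial marker, in both libraries.

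Cldn5 encodes claudin-5, the main sealing protein of endothelial tight junctions. It was at 2849 CPM (95% interval 2807 to 2892) in endothelial-like cells of the NeuroD1 library and at 3186 CPM (3090 to 3285) in those of the GFP library. The next class was border macrophage or monocyte-like at 37.7 CPM in the NeuroD1 library, 75.5-fold lower, and smooth muscle-like at 24.7 CPM in the GFP library, 129-fold lower. When classes were ordered by Cldn5 level, 12 of 13 steps between neighbours in the NeuroD1 library and 10 of 11 in the GFP library were within counting error, all but the step below the endothelium. A Cldn5 UMI was found in 96.1% and 91.4% of endothelial-like cells and in 3.57% and 1.93% of microglia-like cells, a class that should lack it, whose median depths were 1810 and 1205 UMIs. With every cell thinned to 500 UMIs these shares were 72.5% and 74.2% in the endothelium and 0.975% and 0.787% in microglia-like cells.

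Ocln, for occludin, a membrane-spanning partner of the claudins, was at 314 CPM (300.4 to 329) and 237 CPM (211 to 264) in endothelial-like cells. Epithelia also use it: choroid plexus-like cells held 50.8 and 49.4 CPM, which was 16.2% and 20.9% of the endothelial-like level and above every endothelial marker in both libraries. The 36 ependymal-like cells of the NeuroD1 library held 121 CPM from 32 UMIs. Choroid plexus epithelium has tight junctions of its own, which form the barrier between blood and cerebrospinal fluid.

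Tjp1, the scaffold ZO-1 that ties tight junctions to actin and also binds gap junctions, was the least specific junction gene in that the endothelium held 51.1% and 42.4% of its UMIs in the libraries, against 88.6% and 92.1% for Cldn5 and 65.2% and 77.4% for Ocln. Its endothelial-like level was 569 CPM (550 to 588) and 589 CPM (548 to 632). Pericyte-like cells followed with 280 and 317 CPM, a step of 2.03-fold (1.75 to 2.37) and 1.86-fold (1.42 to 2.48); this was above every endothelial marker in the NeuroD1 library but not in the GFP library. Tjp1 was above the marker yardstick in both libraries in astrocyte-like cells (91.2 and 111 CPM), oligodendrocyte-like cells (90.5 and 99.8 CPM) and smooth muscle-like cells (73.5 and 77.6 CPM).

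Among the pumps, Abcb1a, the mouse P-glycoprotein of brain capillaries, was at 997 CPM (971 to 1022) and 1219 CPM (1159 to 1280) in endothelial-like cells, which held 87.7% and 90.1% of its UMIs. The next values came from small classes: 184 CPM in fibroblast-like cells of the NeuroD1 library, and 72.8 CPM (8 UMIs) and 205 CPM (27 UMIs) in T or NK lymphocyte-like cells of the NeuroD1 and GFP libraries. Its close relative Abcb1b had 14 and 5 UMIs in the endothelial-like sums. None of the 951 words of 50 bases in the last 1000 bases of the Abcb1a transcript (GENCODE M21) occurred in a transcript of another gene, while 248 of those of Abcb1b did, so a share of the Abcb1b UMIs cannot be told from Abcb1a or Abcb4. Abcg2, the breast cancer resistance protein, which works beside P-glycoprotein at the same membrane, was at 1046 CPM (1020 to 1072) and 826 CPM (777 to 876). Fibroblast-like cells of the NeuroD1 library held 315 CPM of Abcg2, and in the GFP library too few fibroblast-like cells (28) were present to give a value. Neither pump passed the yardstick in fibroblast-like cells: Abcg2 was at 30.1% and Abcb1a at 18.5% of the endothelial-like level, under the endothelial marker Emcn at 40.3%. Both lay above the summed endothelial markers of these cells, which were at 4.27% (3.74 to 4.85). The intervals were 24.5% to 36.6% for Abcg2 and 14.0% to 23.8% for Abcb1a.

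Slco1a4, an organic anion transporting polypeptide that moves steroid conjugates and thyroid hormone, had 1954 CPM (1919 to 1990) and 1676 CPM (1606 to 1747) in endothelial-like cells. Choroid plexus-like cells followed at 45.8 and 52.1 CPM, 42.7-fold and 32.1-fold lower. Slc2a1, the glucose carrier GLUT1, was at 2307 CPM (2268 to 2346) and 1642 CPM (1573 to 1713). It was also above every endothelial marker in astrocyte-like cells (127 and 138 CPM) and oligodendrocyte-like cells (127 and 85.7 CPM), both of which are known to carry a form of GLUT1, and the ependymal-like cells of the NeuroD1 library held 439 CPM. The endothelium held 70.2% and 64.4% of the Slc2a1 UMIs of the libraries, against 84.2% and 89.0% for Slco1a4.

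Mfsd2a takes up docosahexaenoic acid as lysophosphatidylcholine and is known to restrain vesicle traffic across the endothelium. It was the only one of the 10 genes for which the endothelial-like class was not separated from the next beyond counting error. Endothelial-like cells held 241 CPM (228 to 253) and 219 CPM (194 to 246), and oligodendrocyte precursor-like cells 194 CPM (75 UMIs in 110 cells) and 171 CPM (10 UMIs in 34 cells). The step between them was 1.24-fold (0.983 to 1.59) and 1.28-fold (0.686 to 2.70). Astrocyte-like cells held 140 and 117 CPM from 1648 and 346 UMIs, which was 58.2% and 53.6% of the endothelial-like level. Only 40.4% and 39.8% of the Mfsd2a UMIs of the libraries therefore lay in the endothelium. An Mfsd2a UMI was found in 30.1% and 12.1% of astrocyte-like cells, and in 7.61% and 5.74% after thinning to 500 UMIs, against 0.0812% and 0.286% of thinned microglia-like cells and 11.9% and 9.38% of thinned endothelial-like cells.

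Slc7a5 is LAT1, the carrier of large neutral amino acids and of levodopa, which works as a pair with the heavy chain Slc3a2. Its endothelial-like level was 779 CPM (757 to 802) in the NeuroD1 and 507 CPM (469 to 547) in the GFP library. Astrocyte-like cells held 16.4 and 34.2 CPM, above the endothelial markers there in both libraries. Spock2 encodes testican-2, a secreted heparan sulphate proteoglycan of the extracellular matrix. It was at 2184 CPM (2147 to 2222) and 2180 CPM (2101 to 2262) in endothelial-like cells, and neuron-like cells followed with 437 and 524 CPM, or 19.99% and 24.01% of that level. In the neuron-like class, thinned to 500 UMIs, 19.1% and 23.3% of cells had a Spock2 UMI, beside 62.8% and 63.6% of endothelial-like cells and 0.731% and 1.001% of microglia-like cells.

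Most endothelial-like cells carried several of the 10 RNAs at the same time. With all UMIs the mean number of the 10 genes detected per cell was 7.64 in the NeuroD1 and 5.81 in the GFP library. At an equal 500 UMIs per cell the means were 4.19 and 3.86, and at least 3 of the 10 genes were seen in 86.0% (84.4 to 87.5) and 82.1% (79.6 to 84.4) of cells. No gene of the 10 was seen in 0.934% and 0.888% of them. In every other class at that depth at most 2.54% of cells had 3 or more (fibroblast-like, 3 of 118 cells, NeuroD1), and the next highest share was 0.909% (oligodendrocyte precursor-like, NeuroD1).

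**Figure D2:**
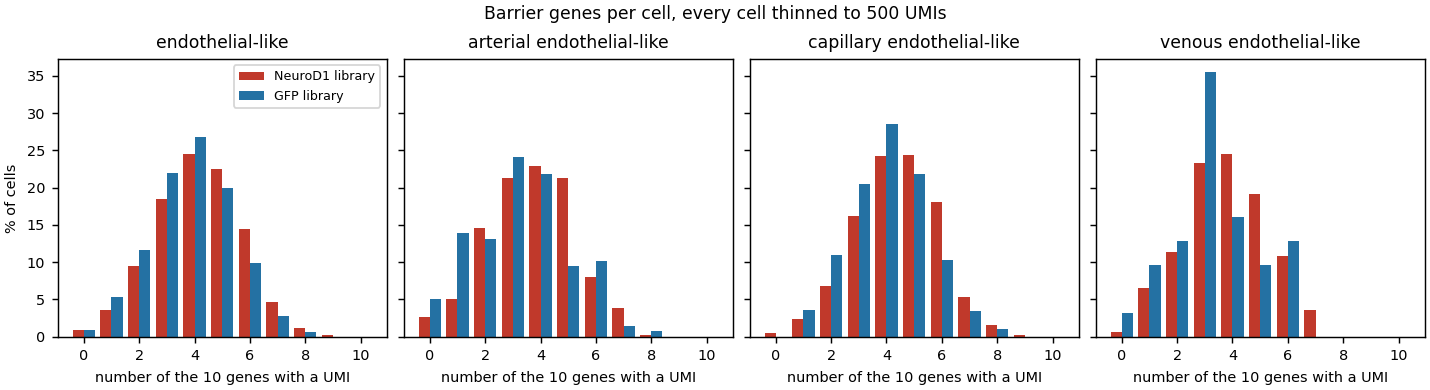
Number of the 10 barrier genes with at least 1 UMI per cell after thinning every cell to 500 UMIs (horizontal axis) against the percentage of cells (vertical axis), by library, with 1 panel for all endothelial-like cells and 1 each for the arterial-like, capillary-like and venous-like cells. The capillary-like cells lie farthest to the right, with 90.2% and 85.5% of them at 3 or more genes.

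Endothelial-like cells were divided into 13 sub-clusters, of which 7 could be named by markers of vessel segments. These gave 337 NeuroD1 and 137 GFP arterial-like cells (medians 2850 and 1235 UMIs), 1065 and 614 capillary-like cells (1997 and 954.5) and 167 and 31 venous-like cells (4877 and 2234). The 6 unnamed sub-clusters, led by pericyte, astrocyte, interferon-induced, choroid plexus, microglial or oligodendrocyte genes, held 465 and 231 cells. One capillary-like sub-cluster of 114 and 98 cells was led by stress and early response genes, including Atf3, Sgk1 and Apold1. The leading genes of the single venous-like sub-cluster included Lcn2, Ptgs2, Serpina3n, Cxcl1, Vcam1 and Cd14, which are known to be induced by inflammation, so venous position and this state cannot be told apart. Within a library the segments share animals, dissociation and sequencing run, so a segment difference seen in both libraries does not depend on the difference between them. A gene was called when its CPM differed at least 1.5-fold.

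Mfsd2a, Slc7a5 and Spock2 were the 3 of 10 genes at least 1.5-fold higher in capillary-like than in venous-like cells, in both libraries. Of all genes tested, 13.7% were that much higher in the NeuroD1 and 28.1% in the GFP library, so the count of 3 in 10 is near the background of the GFP library. Mfsd2a showed the widest range in the deeper library: 297 CPM in capillary-like, 240.1 CPM in arterial-like and 67.6 CPM in venous-like cells. Its capillary-like level was thus 4.39-fold (3.41 to 5.75) the venous-like level. In the GFP library the levels were 231, 133 and 153 CPM, the venous-like one from 11 UMIs, and the corresponding ratio of 1.51 (0.825 to 3.09) did not exclude equal levels. With 0.5 UMI added to each sum its log2 value was 0.54, under the 1.5-fold mark.

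Slc7a5 was at 1011 CPM in capillary-like, 426 CPM in arterial-like and 609 CPM in venous-like cells of the NeuroD1 library, and at 594, 261 and 291 CPM in the GFP library. Capillary-like cells exceeded arterial-like cells 2.38-fold (2.16 to 2.62) and 2.28-fold (1.72 to 3.07), and venous-like cells 1.66-fold (1.52 to 1.82) and 2.04-fold (1.32 to 3.33). It was the only one of the 10 genes called higher in capillary-like than in arterial-like cells in both libraries, beside a background of 10.8% and 19.4% of genes. Under the alternatives for the segments, that call of Slc7a5 was kept in 10 of 10 in each library. The call over venous-like cells was lost in both libraries when only cells with at least 500 detected genes were kept (log2 0.54 and 0.52). Spock2 was at 2634, 1882 and 1332 CPM in capillary-like, arterial-like and venous-like cells of the NeuroD1 library and at 2316, 1816 and 1484 CPM in the GFP library, so both libraries gave the same order. The capillary-like level of Spock2 was 1.98-fold (1.86 to 2.10) and 1.56-fold (1.28 to 1.92) the venous-like one, and in the GFP library that ratio fell under the mark in 2 of 8 alternatives.

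**Figure D3:**
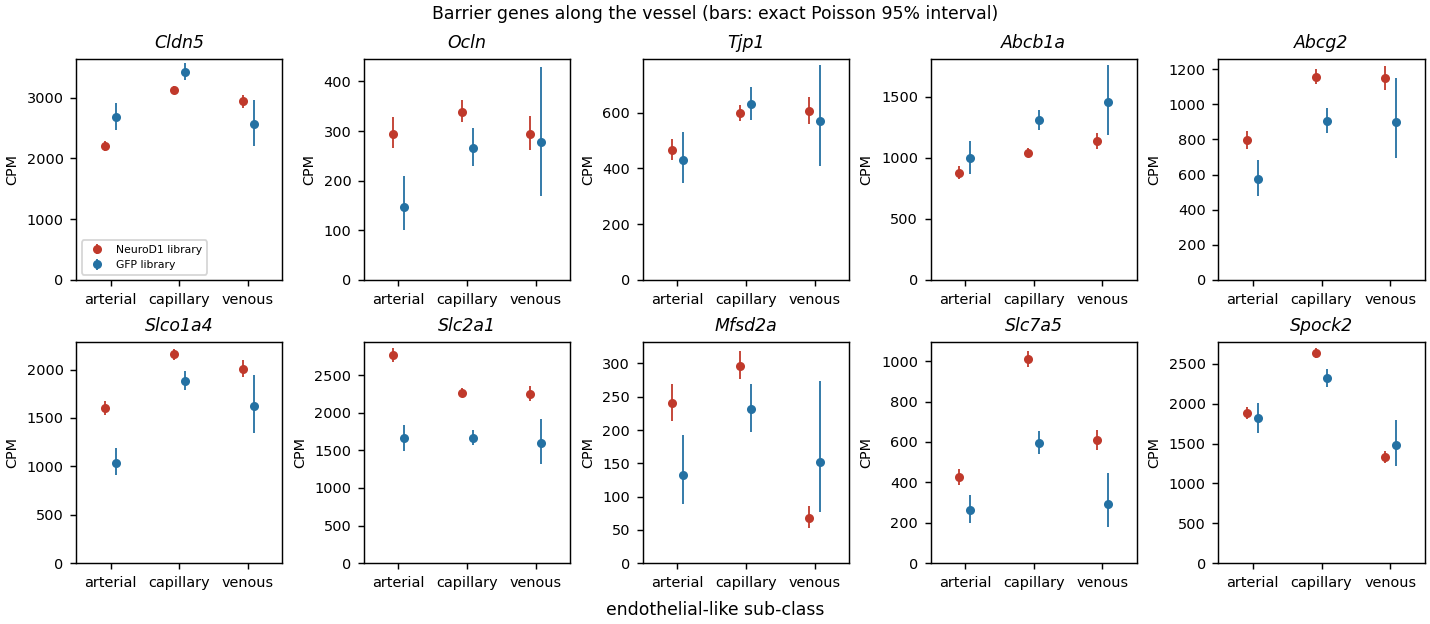
Level in CPM (vertical axis, from 0) of each barrier gene in arterial-like, capillary-like and venous-like cells of each library, with exact Poisson 95% intervals as bars. Slc7a5 peaks in capillary-like cells of both libraries (1011 and 594 CPM) and Mfsd2a is lowest in venous-like cells of the NeuroD1 library (67.6 CPM).

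The GLUT1 gene Slc2a1 followed another order. In the NeuroD1 library arterial-like cells had the highest level, 2764 CPM against 2268 CPM in capillary-like and 2254 CPM in venous-like cells, and the capillary-like level was 0.821-fold (0.786 to 0.857) the arterial-like one. In the GFP library the 3 levels were 1659, 1669 and 1595 CPM, with a capillary over arterial ratio of 1.01 (0.892 to 1.14). Cldn5, in contrast, was lowest in arterial-like cells of the NeuroD1 library, with 2197 CPM beside 3126 CPM in capillary-like and 2937 CPM in venous-like cells. In the GFP library it was at 2678, 3424 and 2566 CPM in the same segments, with arterial-like and venous-like levels not apart (1.04, 0.883 to 1.24). The capillary-like level of Cldn5 lay above the venous-like one in both libraries, but with only cells of at least 500 detected genes the NeuroD1 log2 ratio was −0.01.

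In the GFP library 5 of 10 genes were at least 1.5-fold higher in capillary-like than in arterial-like cells, where 19.4% of 6077 genes were. The 4 beside Slc7a5 included Ocln by 1.81-fold (1.23 to 2.73) and Slco1a4 by 1.81-fold (1.57 to 2.10). The others of the 4 were Mfsd2a by 1.74-fold (1.16 to 2.70, under the mark in 2 of 10 alternatives) and Abcg2 by 1.58-fold (1.30 to 1.93). The same ratios in the NeuroD1 library were 1.15, 1.34, 1.24 and 1.45, all above 1 with intervals that exclude 1 but under the 1.5-fold mark. Between arterial-like and venous-like cells the genes with a call differed by library. Mfsd2a was 3.55-fold (2.71 to 4.73) higher in arterial-like cells of the NeuroD1 library, beside a background of 15.2%. Ocln, Abcg2 and Slco1a4 were 1.89-fold, 1.57-fold and 1.56-fold lower in arterial-like cells of the GFP library, where 16.1% of genes were. The 7 genes other than Mfsd2a, Slc7a5 and Spock2 stayed within 1.5-fold between capillary-like and venous-like cells in both libraries.

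Between the libraries, 9 of the 10 genes differed by less than 1.5-fold in endothelial-like cells, although 7 of the 10 ratios had intervals that exclude 1. Of the 10 genes 1 was at least 1.5-fold higher (Slc7a5) and 0 were that much lower, against 23.5% and 12.1% (35.6% in either direction) of the 11657 genes whose sums held 20 UMIs or more together. The median log2 ratio of the 10 genes was 0.18, beside 0.15 over all those genes. The background was not matched for counts, and the least counted of the 10 genes, Mfsd2a, held 1436 and 285 UMIs. In simulated counts made from the endothelial-like sums, 11.3% of genes with no set difference were called in either direction. The lower share of calls among the 10 genes can therefore not be read as a property of barrier genes. Slc7a5 was 1.54-fold higher in the NeuroD1 library (1.42 to 1.67) from the levels given above. Slc2a1 at 1.40-fold (1.34 to 1.47), Ocln at 1.33-fold (1.18 to 1.505), Abcg2 at 1.27-fold (1.19 to 1.35) and Slco1a4 at 1.17-fold (1.11 to 1.22) lay above 1 by more than counting error. Abcb1a at 0.818 (0.774 to 0.865) and Cldn5 at 0.894 (0.864 to 0.925) lay below 1, and the intervals of Tjp1 (0.966, 0.893 to 1.05), Mfsd2a (1.10, 0.967 to 1.25) and Spock2 (1.002, 0.962 to 1.04) included 1.

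Leaving haemoglobin, Ttr, mitochondrial and ribosomal protein genes out of the UMI totals hardly moved these ratios, with Slc7a5 at 1.533-fold and Cldn5 at 0.892-fold. Scaling by the median ratio of genes instead of the UMI total lowers every log2 ratio by 0.16. Slc7a5 was then at 1.37-fold, so that 0 of the 10 genes were called, Mfsd2a at 0.981 and Spock2 at 0.894. The share of higher calls among all calls fell from 65.9% to 51.4% with that scaling. After thinning to 500 UMIs per cell the log2 ratio of Slc7a5 was 0.55, again under the 1.5-fold mark, and its UMI was found in 30.4% and 22.2% of thinned endothelial-like cells (73.0% and 41.1% with all UMIs).

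**Figure D4:**
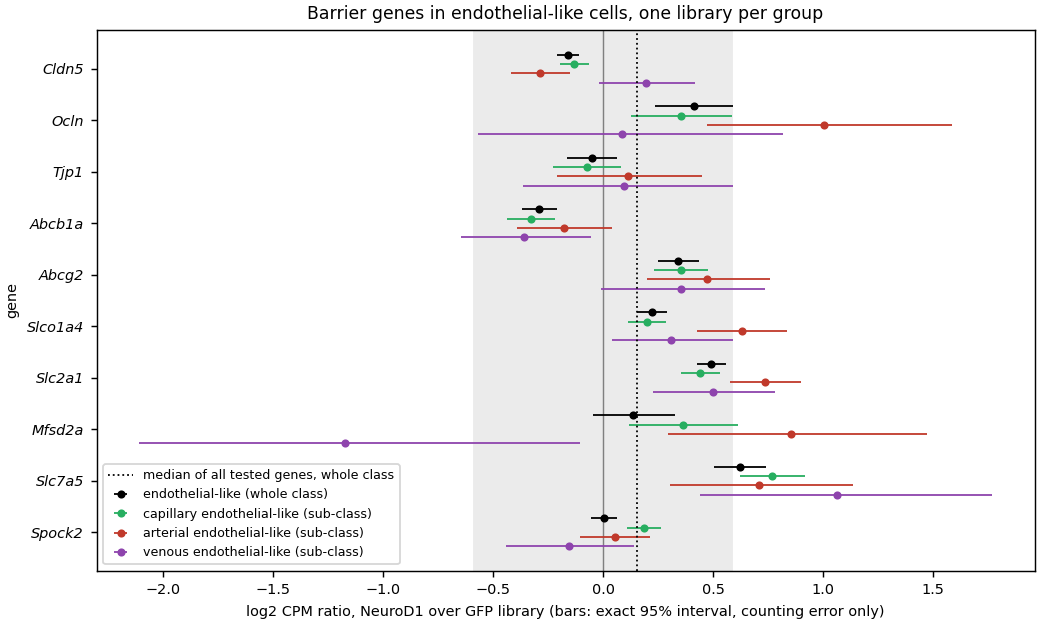
Log2 ratio of CPM, NeuroD1 over GFP library, of each barrier gene (points) with exact 95% counting intervals (bars), in all endothelial-like cells and in capillary-like, arterial-like and venous-like cells. The grey band spans 1.5-fold in either direction and the dotted line is the median of all genes tested (0.15); Slc7a5 lies beyond the band in all 4 sets of cells, at 1.54-fold, 1.70-fold, 1.63-fold and 2.09-fold.

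By vessel segment, arterial-like cells showed the most library differences among these genes. Here 5 of 10 genes were at least 1.5-fold higher in the NeuroD1 library, where 27.9% of 7686 genes were, and the median log2 ratio of the 10 was 0.55 beside 0.07 over all genes. Ocln was at 295 and 147 CPM (2.01-fold, 1.39 to 3.00), with only 31 UMIs in the GFP library. Mfsd2a was at 240.1 and 133 CPM (1.81-fold, 1.23 to 2.77), and Slc2a1 at 2764 and 1659 CPM (1.67-fold, 1.49 to 1.87). Slc7a5 was 1.63-fold (1.23 to 2.20) and Slco1a4 1.55-fold (1.34 to 1.79) higher there, while Cldn5 was at 0.820 of the GFP level (0.749 to 0.900). Haemoglobin and other red blood cell markers in the same arterial-like cells summed to 23566 and 75.8 CPM. This contrast was not particular to them: the sums were 20309 and 94.1 CPM in capillary-like and 3822 and 0 CPM in venous-like cells. The part of these markers in the segment ratios was not tested.

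In capillary-like cells Slc7a5 was again the only gene of the 10 that was called, at 1.70-fold (1.54 to 1.89), where 25.7% of 9797 genes were higher. In venous-like cells 1 of 10 genes was higher, where 36.4% of 6688 genes were, and 1 was lower, where 16.9% were. The higher one was Slc7a5, at 2.09-fold (1.36 to 3.40), from 586 and 21 UMIs. The lower one was Mfsd2a, at 0.443 (0.232 to 0.931), from 65 and 11 UMIs. Mfsd2a therefore had opposite signs in arterial-like and venous-like cells, and this difference was not tested.

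Because cluster 5 came mainly from the NeuroD1 library and cluster 8 mainly from the GFP library, the library ratios were also taken within each cluster, a choice made after the data had been seen. They differed. In cluster 5, 5 of the 10 genes were at least 1.5-fold higher in the NeuroD1 library, where 31.6% of 10875 genes were, and 0 lower, where 17.6% were. The 5 were Slc7a5 at 830 and 301 CPM (2.76-fold, 2.16 to 3.59), Abcg2 at 1041 and 555 CPM (1.88-fold, 1.56 to 2.27), Slco1a4 (1.70-fold), Slc2a1 (1.56-fold) and Mfsd2a (1.51-fold). Cldn5 and Abcb1a were at 1.05 and 1.01 there. In cluster 8, 0 of the 10 were called in either direction, where 15.3% of 7245 genes were higher and 23.9% lower. There Slc7a5 was at 677 and 554 CPM (1.22-fold, 1.03 to 1.44), Slc2a1 at 1.03, Abcg2 at 0.968, Slco1a4 at 0.846 (0.761 to 0.940) and Cldn5 at 0.782 (0.722 to 0.847). Slc7a5 thus kept a ratio above 1 in both clusters, with intervals that exclude 1. Ocln, Tjp1, Slc2a1 and Mfsd2a were above 1 in both clusters as well, but with intervals that include 1 in cluster 8. Slco1a4 lay above 1 in cluster 5 and below 1 in cluster 8, with intervals that exclude 1. Median depth was 2421 and 1716 UMIs in cluster 5 and 880 and 978 in cluster 8, so depth differed between the clusters as well.

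**Figure D5:**
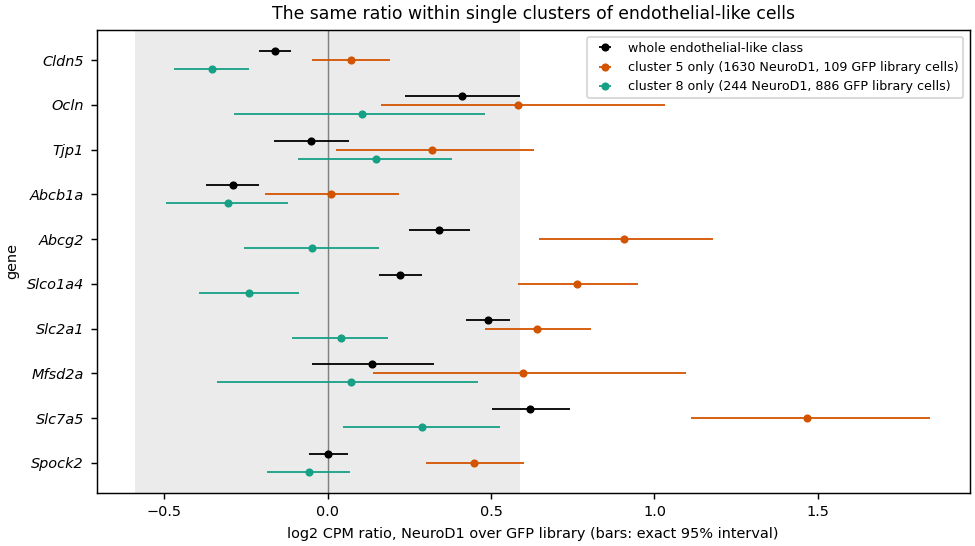
Log2 ratio of CPM, NeuroD1 over GFP library, of each barrier gene in all endothelial-like cells, in cluster 5 only and in cluster 8 only, with exact 95% counting intervals. Ratios in cluster 5 lie above those in cluster 8 for each of the 10 genes, with Slc7a5 at 2.76-fold and 1.22-fold.

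Outside the vessel wall the library ratios of these genes rest on low levels, and the clusters behind each class again differ between libraries. In astrocyte-like cells 1 of the 10 genes was at least 1.5-fold higher in the NeuroD1 library (Ocln, 26 and 4 UMIs, with an interval that includes 1) and 3 were lower, where 10.5% and 24.9% of 13300 genes were. Slc7a5 was at 16.4 and 34.2 CPM (0.479, 0.375 to 0.615), Spock2 at 24.4 and 44.7 CPM (0.545, 0.442 to 0.675) and Cldn5 at 8.83 and 13.6 CPM (0.652, 0.448 to 0.963). Cldn5 was not above the marker yardstick there. Most astrocyte-like cells came from cluster 1 (2428 NeuroD1 and 100 GFP cells), cluster 2 (1077 and 1212) and cluster 9 (159 and 848). Within them the Slc7a5 ratio was 1.81 from 2 GFP UMIs (0.494 to 15.1), 0.526 (0.277 to 0.961) and 1.01 (0.561 to 1.72). The Slc7a5 interval lay below 1 in cluster 2 only, but the intervals of clusters 2 and 9 overlap, so a difference between these clusters was not shown. Mfsd2a behaved otherwise: its class ratio was 1.19 (1.06 to 1.34), and in clusters 1, 2 and 9 it was 1.55 (1.007 to 2.504), 1.43 (1.11 to 1.85) and 1.55 (1.20 to 1.98).

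In microglia-like cells 4 of the 10 genes were higher and 2 lower in the NeuroD1 library, where 35.1% and 18.1% of 11946 genes were. Tjp1 was at 128 and 39.5 CPM (3.24-fold, 2.74 to 3.85). In cluster 6, the microglia-like cluster with many cells of both libraries (573 and 691), Tjp1 was at 149 and 88.2 CPM (1.69-fold, 1.24 to 2.34), and in cluster 12 (638 and 63 cells) at 121 and 213 CPM (0.565, 0.363 to 0.923). The remaining microglia-like clusters came almost wholly from the GFP library: cluster 4 with 2 NeuroD1 and 2065 GFP cells, cluster 11 with 13 and 778, and cluster 13 with 5 and 598. In oligodendrocyte-like cells, 2 of the 10 genes were higher, where 12.9% of 12142 genes were; Mfsd2a was at 14.6 and 5.20 CPM (2.81-fold, 1.70 to 4.95), from clusters 0 (2874 and 288 cells) and 3 (275 and 1976 cells).

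Other barrier genes gave the setting for the 10, from 5 lists that include them, in endothelial-like cells. Over all 11657 genes tested there, 23.5% were at least 1.5-fold higher and 12.1% lower, with a median log2 ratio of 0.15. In each of the 5 lists the share of higher genes was under 23.5%, a background that was not matched for counts. Of 22 junction genes with enough UMIs (of 23 listed), 2 were at least 1.5-fold higher and 3 lower in the NeuroD1 library, with a median log2 ratio of 0.06. The higher ones were Amotl2, an angiomotin of endothelial junctions, at 40.2 and 22.3 CPM, and Gjc1, which encodes connexin 45, at 255 and 151 CPM. Ctnna1, the alpha-catenin of adherens junctions, was lower at 522 and 822 CPM (0.635, 0.592 to 0.682), and the other two lower genes, Cldn12 (33 and 11 UMIs) and Jam3 (36 and 13 UMIs), had intervals that include 1 and are named because the count is small. Esam, an adhesion molecule of endothelial junctions, was at 1018 and 858 CPM.

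Of 7 efflux pumps measured (of 8) 1 was higher and 1 lower, with a median of 0.08. These were Abcc1 (26 and 3 UMIs) and Abca2 (50 and 17 UMIs), both with intervals that include 1. Abcc4, a pump of organic anions, was at 99.8 and 108 CPM. Of 25 solute carriers of the barrier 4 were higher and 0 lower, with a median of 0.17: beside Slc7a5 they included Slc38a5, a glutamine carrier, at 576 and 372 CPM (1.55-fold, 1.40 to 1.70), and Slc5a6, a vitamin carrier, at 20.1 and 10.8 CPM (1.87-fold, 1.07 to 3.52). The partner chain of LAT1, Slc3a2, was at 1462 and 1066 CPM (1.37-fold, 1.30 to 1.45). Its ratio, like that of Slc7a5, was farther from 1 in cluster 5, at 2.13-fold (1.81 to 2.52), than in cluster 8, at 1.09-fold (0.964 to 1.23).

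Genes of transcytosis and caveolae, a list that holds receptors such as Lrp1 and Lepr beside caveolar genes, had a median of −0.03 with 1 of 14 higher and 2 lower. Plvap, a component of vesicle diaphragms that mature barrier endothelium lacks, had 54 UMIs in the NeuroD1 and 1 in the GFP library (11.8-fold, 2.03 to 474). The endothelial-like class includes the unnamed sub-cluster led by choroid plexus genes (74 NeuroD1 and 21 GFP cells). The part of those cells in the Plvap UMIs was not tested. The 2 lower genes of the list were Lrp1, an endocytic receptor, at 16.4 and 44.5 CPM, and Lepr, the leptin receptor, at 13.1 and 23.8 CPM. Cavin2 (1.002) and Cav2 (1.09), both of caveolae, and the growth factor receptor gene Igf1r (1.16) were near 1. Of 19 Wnt and transcriptional regulators of the barrier measured (of 22), 2 were higher and 2 lower, with a median of 0.29. Sox18, an endothelial transcription factor, was among the higher ones, at 1035 and 292 CPM (3.55-fold, 3.20 to 3.94). Apcdd1, a Wnt target and inhibitor, was lower at 22.3 and 56.1 CPM (0.397, 0.297 to 0.536), and Znrf3 (37 and 13 UMIs) had an interval that includes 1. Lef1, the Wnt effector, was at 386 and 528 CPM (0.730, 0.670 to 0.796), and Sox17 at 525 and 468 CPM (1.12). Sox18 was among the leading genes of cluster 5, mainly NeuroD1 library cells, and Lef1 among those of cluster 8, mainly GFP library cells. The ratios of Sox18 and Lef1 within a cluster are not given here.

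Across the 26 class-by-library points the 3 genes whose level followed each of the 10 most closely were found by correlation. The measure was Pearson's r of log2(CPM + 1) over 11818 genes, given as a description because classes of 1 library share its depth and free RNA. Ly6c1 (r 0.93), Flt4 (0.89) and Pecam1 (0.88) came closest to Cldn5, and Icam2 (0.90), Ly6a (0.89) and Myl12b (0.87) to Abcb1a. Slc16a4 (0.95), Paqr5 (0.88) and Bvht (0.86) came closest to Ocln, and Flt1 (0.80), Foxl2 (0.78) and Cldn5 (0.78) to Abcg2. The nearest genes to Slco1a4 were Degs2 (0.87), Adgrl4 (0.86) and Robo4 (0.85), those to Slc2a1 were Ceacam2 (0.87), Nxpe4 (0.82) and Mall (0.82), and those to Tjp1 were Golim4 (0.84), Mapk12 (0.81) and Sike1 (0.80). For Mfsd2a they were Prom1 (0.81), Tmtc2 (0.79) and Ddah1 (0.77), for Slc7a5 Rad54b (0.81), Spock2 (0.79) and Igf1r (0.78), and for Spock2 Slc39a10 (0.88), Pcmtd1 (0.83) and Fgd5 (0.83). Among the 10 genes themselves, r ran from 0.08 between Ocln and Mfsd2a to 0.79 between Slc7a5 and Spock2.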

How the data were processed

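The deposited matrices hold UMI counts per gene and barcode. FastQC, fastp, cutadapt, STAR, featureCounts and build mm39 are named in the submitters' processing notes, without versions or roles; the release of the annotation was not given in the sources used here. Per the labels' protocols, papain-dissociated cells were loaded on a microwell chip, while the description label names another platform. The members and lists were chosen with earlier results of these data known. Barcodes under 200 genes or over 20% mitochondrial UMIs (131 and 104) were removed, and Scrublet in scanpy 1.11.5 (Python 3.11.15) then took out 509 (3.84%) and 570 (4.90%) as doublets. Leiden clustering (leidenalg 0.10.2, resolution 1.0, 3000 variable genes without the barrier genes, 30 components, 15 neighbours, seed 1) gave 26 clusters. A cluster was named where at least 3 markers of a class, and more than of any other class, were among its 200 leading genes. A name also needed at least 20 cells and passed limits on depth and on the 10 leading genes. The 2 that stayed unnamed were cluster 18 (10 pericyte and 10 endothelial markers) and cluster 25 (9 cells). The rebuilt names may differ from the study's. Barcodes start at 500 UMIs in both libraries. Counts were summed per class and library and scaled to CPM, with exact Poisson intervals for levels, conditional binomial intervals for ratios and Clopper-Pearson intervals for shares (scipy 1.17.1), at 95%. Log2 ratios had 0.5 UMI added. Sub-clusters used 2000 variable genes scaled within each library. The procedure was tested on simulated counts. Named were all 10 genes; of each list the 3 of highest mean level and up to 4 higher and 4 lower by at least 1.5-fold with an interval excluding 1, farthest end first; and for each of the 10 the 3 genes of highest r among genes with at least 200 UMIs, Gm- and Rik-named genes left out. Other genes named are markers, leading genes of a sub-cluster, the sex-linked pair, Abcb1b as a near copy and Slc3a2. Some genes that this rule allows are left out of the text.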

Additional observations from a re-analysis of the deposited data

Results flagged for a closer look

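Several library ratios (NeuroD1 over GFP) of the same gene differed between classes, in that a gene stood above the 1.5-fold mark in some and below it in others or moved the opposite way; these differences between classes were not tested. Slc7a5 was higher in the NeuroD1 library in endothelial-like cells (1.537), in their arterial-like (1.632), capillary-like (1.703) and venous-like parts (2.091) and in microglia-like cells (1.982, 54 and 65 UMIs), and lower in astrocyte-like cells (0.4789, 193 and 101 UMIs). Mfsd2a was higher in arterial-like (1.809) and oligodendrocyte-like cells (2.808, 153 and 17 UMIs) and lower in venous-like cells (0.4429). Cldn5 was higher in microglia-like cells (1.574, 64 and 97 UMIs) and lower in astrocyte-like cells (0.6516, 104 and 40 UMIs), both far below its endothelial-like level. Cldn5 in these classes and Slc7a5 in microglia-like cells were not above the endothelial-marker yardstick in either library.

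The barrier genes were also found in cells that no comparison used. Unnamed cluster 18 (185 NeuroD1 and 35 GFP cells) carried the 10 genes at a summed 9174.8 CPM (NeuroD1) and 7703 CPM (GFP), against 13240 and 12279 CPM in endothelial-like and 497 and 555 CPM in pericyte-like cells. The same cluster held endothelial markers at 13409 and 11184 CPM and pericyte markers at 16097 and 13832 CPM, beside 51625 and 47537 CPM of the latter in pericyte-like cells. Its median depth was 4388 and 1529 UMIs per cell. Whether these cells are doublets was not tested.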

How the results depend on the processing

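No paired analysis was possible because each group is 1 library. All 10 genes stayed highest in endothelial-like cells under the 11 alternatives run for that order. The count of genes at least 1.5-fold higher in the NeuroD1 library (1 of 10) became 0 with scaling by the median ratio of genes, 0 with cells thinned to 500 UMIs, 5 in arterial-like cells alone, and, in fits by single cluster added after the data were seen, 5 in cluster 5, 0 in cluster 8 and 3 in cluster 20, where 31.6%, 15.3% and 41.7% of genes were higher. The count of lower genes (0) became 1 in venous-like cells and 1 in cluster 20. The median log2 ratio of the 10 (0.18) became 0.5465 in arterial-like cells and 0.5732 in cluster 5. That of the solute carriers (0.17) became 0.6395 in cluster 5 and −0.1976 in cluster 8, and that of the Wnt and transcriptional regulators (0.29) −0.2547 in venous-like cells. The share of all tested genes that differed (35.6%) became 62.09% in cluster 20, which has 18 GFP cells. For these values the cause was not tested. The other 186 checks of main values moved by less than their interval or 1.5-fold; of 400 checks of single genes 102 moved and 298 did not. The log2 ratio of Slc7a5 stayed between 0.29 and 1.46 over 21 alternatives; that of Cldn5 ran from −0.35 to 0.35 and that of Mfsd2a from −1.23 to 0.83. Of the calls of capillary-like over venous-like cells, that of Mfsd2a was under 1.5-fold in 0 of 10 alternatives in the NeuroD1 library and 3 of 8 in the GFP library, that of Slc7a5 in 1 of 10 and 1 of 8, and that of Spock2 in 0 of 10 and 2 of 8. Both changes of clustering resolution gave no venous-like value for the GFP library. Its 31 venous-like cells, with 11 Mfsd2a UMIs, limit those ratios.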
